A study of Mus musculus with 12 samples.

Results

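The genes that lie around *Sting1* on mouse chromosome 18 are described here across 12 liver RNA-seq libraries. They were selected by position and by counts: every gene of the deposited tables with a start between 25.87 and 45.87 Mb of chromosome 18 (GRCm39), without *Sting1* itself and without 1 further gene that the selection left out, and with at least 10 counts in 3 or more libraries. The window held 309 such genes before the count minimum, of which 145 passed it and are called members below, and 164 did not. The same minimum was passed by 15113 of the 40551 genes of the tables and by 252 genes on the rest of chromosome 18. Of the members, 131 were protein-coding, 10 were long noncoding RNAs, and 4 were small RNAs, and 52 started proximal and 93 distal to *Sting1*.

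The libraries came from whole livers of 4 genotypes with 3 mice each. WT mice carry both genes. *Mcl1*Δhep mice (*Mcl1* KO in the labels) lose the antiapoptotic gene *Mcl1* in hepatocytes, because the albumin promoter drives Cre (Alb-Cre) in mice with floxed *Mcl1* alleles. *Sting1*-/- mice (*Sting1* KO) are homozygous for a null allele of *Sting1* in all tissues, and *Mcl1*Δhep *Sting1*-/- mice (*Mcl1* *Sting1* DKO) were bred by crossing both lines. The WT and *Mcl1*Δhep mice were 2 months old. *Mcl1*Δhep *Sting1*-/- mice were examined at 2 and 12 months, and which of these ages the sequenced livers had is not given in the sources used here, nor is the age of the *Sting1*-/- mice. The labels name no age and no treatment. The strain in which the *Sting1* allele was made, the form of the allele, and the number of backcrosses are not given in the sources used here, nor whether the mice were littermates.

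*Sting1* encodes STING, the adaptor of the endoplasmic reticulum through which the DNA sensor cGAS induces type I interferon. A deleted allele is inherited with the chromosome around it, so that mice bred for the allele also share neighbouring genes from the line in which it was made, until recombination separates them. This stretch of chromosome 18 holds the clustered protocadherins, cell adhesion genes known from neurons, and genes with roles in liver, among them *Proc*, which encodes the anticoagulant protein C, *Nr3c1*, which encodes the glucocorticoid receptor, and *Cd14*, which encodes a coreceptor for lipopolysaccharide. The question asked was whether the levels of the neighbours differed between *Sting1*-null and *Sting1*-intact livers, with *Mcl1* deleted and with *Mcl1* intact.

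Libraries held 28826367 to 45266387 gene counts, of which 0.382 to 0.422% lay on the members. Levels are given as CPM, in which TMM factors bring the libraries to 1 common scale. Log2 fold changes are given ± an approximate standard error (SE). This SE is the absolute log2 fold change divided by the square root of edgeR's F statistic, and is not a fitted standard error. The hepatocyte markers *Alb*, *Apoa1*, *Ttr*, *Cyp2e1*, and *Serpina1a* summed to 82040 to 144600 CPM in every library. Some libraries stood apart. Small structured RNAs held 0.172 to 0.369% of counts in WT, 0.506 to 0.897% in *Sting1*-/-, 0.431 to 0.532% in *Mcl1*Δhep *Sting1*-/-, and 0.283, 2.37, and 1.36% in *Mcl1*Δhep replicates 1, 2, and 3. *Mcl1*Δhep replicate 3 had 1155 CPM of 5 skeletal muscle markers, against at most 6.29 CPM in the others. Y-linked genes, which mark males, were expressed in 3 libraries (WT replicates 2 and 3 and *Mcl1*Δhep *Sting1*-/- replicate 1). No *Sting1*-/- and no *Mcl1*Δhep liver was among these, so that sex and genotype cannot be fully told apart in the comparisons of *Sting1* loss.

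*Sting1* spans 35866732 to 35873607 of chromosome 18 (ENSMUSG00000024349). Its levels were 2.53, 2.43, and 2.11 CPM in the WT livers and 1.16, 1.73, and 2.70 CPM in the *Sting1*-/- livers. It had 4.59, 5.997, and 3.67 CPM in the *Mcl1*Δhep livers and 1.90, 2.53, and 2.33 CPM in the *Mcl1*Δhep *Sting1*-/- livers. The *Sting1*-null livers lay below the *Sting1*-intact ones with *Mcl1* deleted, and the groups overlapped with *Mcl1* intact. Over both *Mcl1* states, the log2 fold change was −0.69 ± 0.20 (edgeR adjusted p = 0.434). The counts on *Sting1* therefore do not check the *Sting1* labels, and the groups below are those of the labels.

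No member passed edgeR's quasi-likelihood test between *Sting1*-null and *Sting1*-intact livers at an adjusted p under 0.05, and neither did any of the 15070 genes tested. Of the 145 members, 143 had enough counts for this test, and *Pcdhb18* and *Ppp2r2b* did not. The same held with *Mcl1* deleted, with *Mcl1* intact, and for the difference between both effects, with 0% of all genes called each time. At an unadjusted p under 0.05, 22 members (15.4%) differed over both *Mcl1* states, 8 higher and 14 lower in the *Sting1*-null livers, beside 10.2% of all genes tested and 13.6% of the 250 genes tested on the rest of chromosome 18. With *Mcl1* deleted, 31 members (21.7%) had such a p, beside 20.6% of all genes. With *Mcl1* intact, 16 members (11.2%) had it, beside 5.45% of all genes. For the difference between both effects, 23 members (16.1%) had it, beside 14.4%. The median log2 fold change of the members over both *Mcl1* states was −0.07, beside 0.00 for all genes, and it was 0.00 over the 121 members other than the *Pcdhg* genes, which share their reads.

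DESeq2, run on the same genes, called 4 members over both *Mcl1* states (2.8%, beside 0.445% of all genes), and all 4 were lower in the *Sting1*-null livers: *Myo7b*, *Maskbp3*, *Eif4ebp3*, and *Apbb3*. It called 7 members with *Mcl1* deleted (4.9%, beside 4.51%), 2 with *Mcl1* intact (1.4%, beside 0.325%), and 1 for the difference (0.699%, beside 1.13%). These members were named after their values were seen, and edgeR, the main test, called none of them. DESeq2 gave no adjusted p for 14 members with *Mcl1* deleted and for 12 for the difference. Genes without one count as not called, among the members and among all genes.

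The comparisons with *Mcl1* deleted and with *Mcl1* intact share no library, so each gives its own values for the members. With *Mcl1* deleted, the 3 *Sting1*-null libraries did not overlap the 3 *Sting1*-intact ones for 23 members (8 higher and 15 lower, beside 18.2% of all genes). With *Mcl1* intact, this held for 17 members (7 higher and 10 lower, beside 12.5%). Both at once and in the same direction, it held for 5 members, *Apbb3*, *Sil1*, *Spata24*, *Gm50318*, and *Myo7b*, which is 3.5% of the 143, beside 0.77% of all genes and 0.4% of the rest of chromosome 18. *Spata24* and *Gm50318* share reads, so these are not 5 separate observations. For *Prelid2* alone, the groups were separated in opposite directions, beside 1.34% of all genes. Without *Mcl1*Δhep replicate 1, 8 members were separated the same way in both, beside 2.15% of all genes. That library held fewer small structured RNA counts than the other 2 of its group. The count was 6 to 10 when any other single library was left out, beside 0.967 to 1.99% of all genes. Overlap is rarer with fewer libraries, so that both shares rise and these counts do not check the 5.

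**Figure D1:**
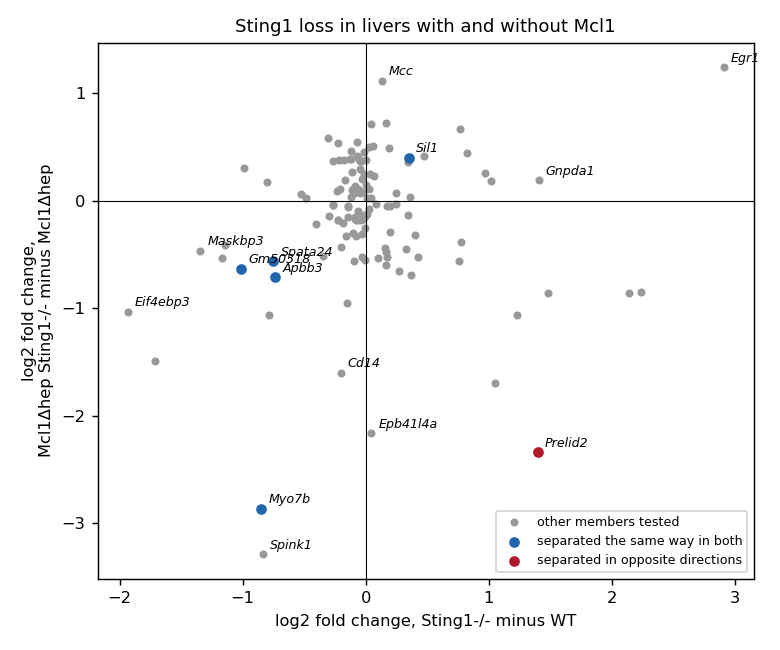
Each point is 1 of 143 members tested, with the log2 fold change of *Sting1* loss in livers with *Mcl1* intact on the x axis and with *Mcl1* deleted on the y axis. The 5 members in blue had no overlap between groups and the same direction in both comparisons, and *Prelid2*, in red, lay at 1.40 on the x axis and −2.34 on the y axis.

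*Apbb3*, which encodes an adaptor of the Fe65 family that binds the amyloid precursor protein, was the 1 member whose 6 *Sting1*-null libraries did not overlap the 6 *Sting1*-intact ones (0.133% of all genes had no such overlap). It lies 0.937 Mb distal to *Sting1* (ENSMUSG00000117679, 36804205 to 36812553). Its levels were 7.99, 5.58, and 6.44 CPM in WT and 5.61, 7.86, and 6.48 CPM in *Mcl1*Δhep livers. They were 4.66, 3.18, and 4.10 CPM in *Sting1*-/- and 4.11, 3.46, and 4.54 CPM in *Mcl1*Δhep *Sting1*-/- livers. The lowest intact liver was thus above the highest null liver, and the log2 fold change of *Mcl1* deletion was 0.01 ± 0.15. The fold change of *Sting1* loss was −0.71 ± 0.21 with *Mcl1* deleted and −0.74 ± 0.21 with *Mcl1* intact. Over both states it was −0.72 ± 0.15, with an edgeR adjusted p of 0.298 over all genes and a DESeq2 adjusted p of 0.00595. Its exons overlap those of *Slc35a4*.

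**Figure D2:**
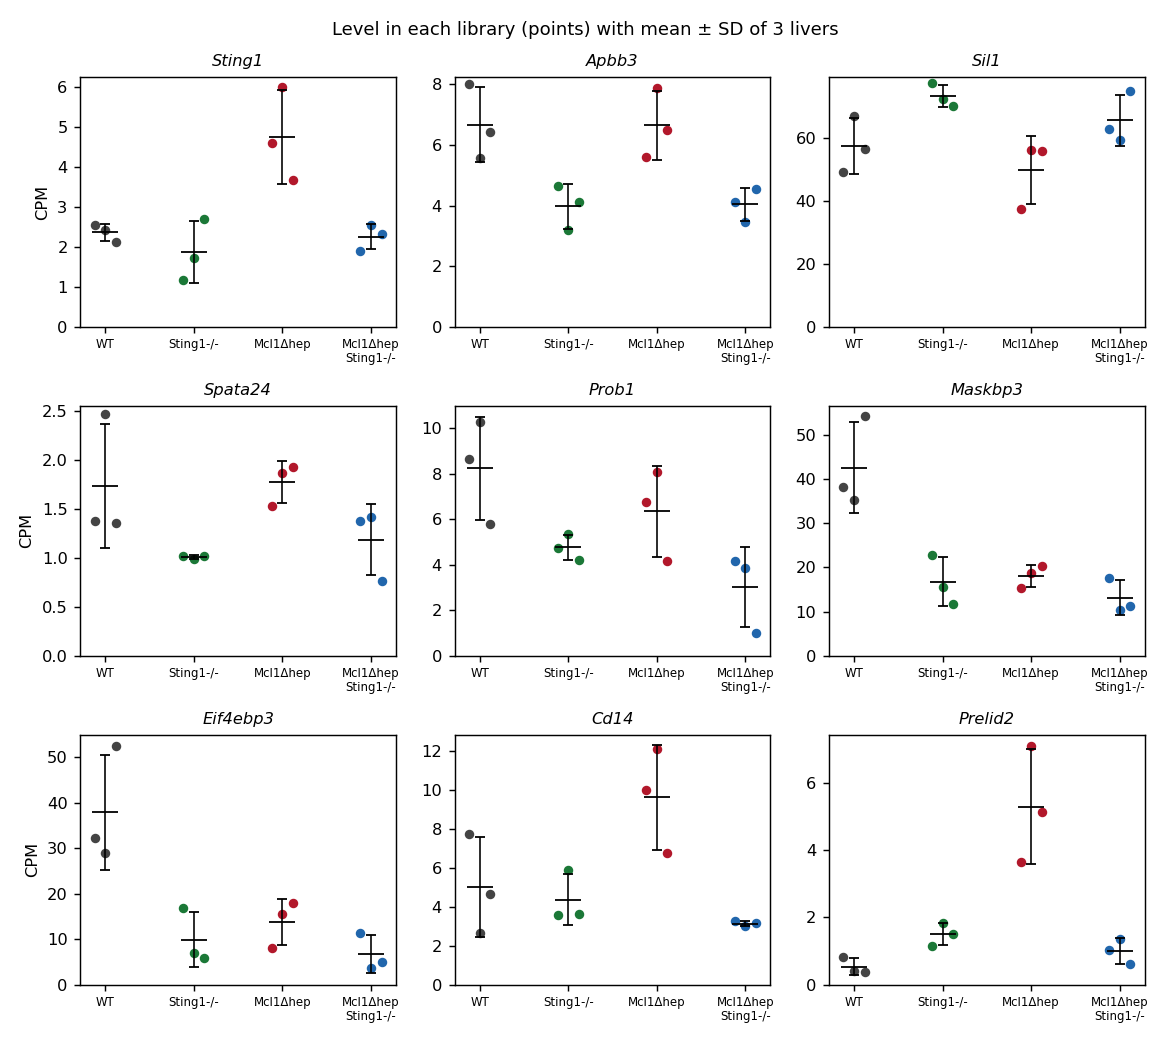
CPM of *Sting1* and 8 members in each library, with 1 point per liver and the mean ± SD of 3 livers per genotype on axes that start at 0. *Apbb3* lay at 3.18 to 4.66 CPM in the 6 *Sting1*-null livers and at 5.58 to 7.99 CPM in the 6 *Sting1*-intact ones, whereas *Cd14* and *Prelid2* had their highest mean in the *Mcl1*Δhep livers.

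*Maskbp3* and *Eif4ebp3* lie close to *Apbb3*, 0.914 and 0.930 Mb distal to *Sting1*. *Sra1* starts between *Eif4ebp3* and *Apbb3*, at 0.933 Mb, and did not have an unadjusted p under 0.05 over both *Mcl1* states. *Eif4ebp3* encodes a protein that binds the cap-binding factor eIF4E and represses translation, and *Maskbp3* is a readthrough gene that joins exons of *Ankhd1* and *Eif4ebp3*, so that their counts are not independent. *Eif4ebp3* had 32.2, 29.0, and 52.5 CPM in WT and 16.9, 6.98, and 5.77 CPM in *Sting1*-/- livers. It had 8.05, 15.4, and 17.9 CPM in *Mcl1*Δhep and 11.4, 3.75, and 5.06 CPM in *Mcl1*Δhep *Sting1*-/- livers. The groups were separated with *Mcl1* intact and overlapped with *Mcl1* deleted. Its log2 fold change over both states was −1.48 ± 0.35 (edgeR adjusted p = 0.431, DESeq2 adjusted p = 0.0039), with −1.94 ± 0.49 for *Mcl1* intact and −1.03 ± 0.49 for *Mcl1* deleted.

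*Maskbp3* had 38.2, 35.2, and 54.4 CPM in WT, 22.8, 15.6, and 11.8 CPM in *Sting1*-/-, 15.4, 18.7, and 20.3 CPM in *Mcl1*Δhep, and 17.7, 10.4, and 11.3 CPM in *Mcl1*Δhep *Sting1*-/- livers. WT livers were above all others, and the 3 genotypes with a deletion overlapped. The log2 fold change of *Sting1* loss over both states was −0.91 ± 0.19 (edgeR adjusted p = 0.313, DESeq2 adjusted p = 0.00435). *Ankhd1*, which encodes an ankyrin repeat and KH domain protein and shares exons with *Maskbp3* only, had 40.2 to 42.6 CPM in WT and 31.9 to 43.4 CPM in *Sting1*-/- livers, with a log2 fold change of 0.08 ± 0.13 over both states.

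A second group of neighbours with lower levels in the *Sting1*-null livers lies 0.078 to 0.086 Mb proximal to *Sting1*. *Spata24*, a gene named for spermatogenesis, had 1.37, 2.46, and 1.35 CPM in WT and 1.02, 0.982, and 1.01 CPM in *Sting1*-/- livers. It had 1.53, 1.87, and 1.93 CPM in *Mcl1*Δhep and 1.37, 1.41, and 0.766 CPM in *Mcl1*Δhep *Sting1*-/- livers. The groups were separated in both *Mcl1* states, by as little as 1.53 against 1.41 CPM with *Mcl1* deleted. Its log2 fold change over both states was −0.66 ± 0.21 (edgeR adjusted p = 0.443). These values rest on 28 to 83 counts per library, and the predicted gene *Gm50318* (−0.82 ± 0.23) shares these reads.

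*Mzb1*, which encodes an endoplasmic reticulum protein of B and plasma cells, also shares reads with *Gm50318* and had only 4 to 28 counts per library. The fold change was −0.85 ± 0.38 (edgeR adjusted p = 0.486). The B and plasma cell markers *Cd79a*, *Cd79b*, *Ms4a1*, and *Jchain* summed to 2.61 to 10.2 CPM in WT, 3.84 to 7.14 in *Sting1*-/-, 6.14 to 11.5 in *Mcl1*Δhep, and 4.62 to 8.29 in *Mcl1*Δhep *Sting1*-/- livers, and their part in the *Mzb1* value was not tested. *Prob1* overlaps no other counted gene. It had 8.63, 10.3, and 5.78 CPM in WT, 4.71, 5.33, and 4.22 CPM in *Sting1*-/-, 6.76, 8.08, and 4.17 CPM in *Mcl1*Δhep, and 4.18, 3.85, and 0.985 CPM in *Mcl1*Δhep *Sting1*-/- livers. The groups were separated with *Mcl1* intact and overlapped slightly with *Mcl1* deleted (4.18 against 4.17 CPM), and the log2 fold change was −0.93 ± 0.30 (edgeR adjusted p = 0.443).

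*Sil1*, which encodes a nucleotide exchange factor for the chaperone BiP of the endoplasmic reticulum, was the 1 separated member with higher levels in the *Sting1*-null livers. It lies 0.467 Mb proximal to *Sting1*. It had 49.1, 66.8, and 56.3 CPM in WT against 77.2, 72.4, and 70.1 CPM in *Sting1*-/- livers. It had 37.3, 56.0, and 55.7 CPM in *Mcl1*Δhep against 62.7, 59.1, and 74.7 CPM in *Mcl1*Δhep *Sting1*-/- livers. The differences were small, with log2 fold changes of 0.35 ± 0.18 and 0.40 ± 0.18, and 0.38 ± 0.12 over both states (edgeR adjusted p = 0.448).

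The other members among the 5 nearest to *Sting1* on each side had fold changes nearer to 0 over both *Mcl1* states. On the proximal side, *Dnajc18*, a J-domain cochaperone gene, had 7.17 to 12.4 CPM in WT and 9.69 to 11.6 CPM in *Sting1*-/- livers, with a log2 fold change of 0.08 ± 0.15 over both *Mcl1* states. *Ecscr*, an endothelial gene and the nearest member, 0.021 Mb away, had 3.81, 7.56, and 4.62 CPM in *Mcl1*Δhep and 2.94, 3.48, and 3.61 CPM in *Mcl1*Δhep *Sting1*-/- livers, a log2 fold change of −0.66 ± 0.27 (edgeR adjusted p = 0.201) that was 0.27 ± 0.27 with *Mcl1* intact. On the distal side, *Ube2d2a*, which encodes a ubiquitin-conjugating enzyme, had −0.12 ± 0.11. The predicted gene *Gm50371* had −0.01 ± 0.13, *Cxxc5*, which encodes a zinc finger protein that binds CpG, had 0.01 ± 0.15, and *Pura*, which encodes a protein that binds single-stranded nucleic acids, had 0.02 ± 0.11. *Igip* had 0.38 ± 0.16 (edgeR adjusted p = 0.477), with 4.34, 2.72, and 2.12 CPM in *Mcl1*Δhep and 4.71, 5.24, and 5.25 CPM in *Mcl1*Δhep *Sting1*-/- livers and overlapping levels with *Mcl1* intact (5.05 to 5.22 in WT and 4.97 to 5.79 CPM in *Sting1*-/-).

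By distance, 36 tested members started within 1 Mb of *Sting1*, and 11 of them (30.6%) had an unadjusted p under 0.05 over both *Mcl1* states. Between 1 and 5 Mb, this held for 9 of 91 (9.89%), and beyond 5 Mb for 2 of 16 (12.5%), beside 10.2% of all genes. With *Mcl1* intact, the share was 22.2% within 1 Mb, 6.59% between 1 and 5 Mb, and 12.5% beyond 5 Mb, beside 5.45% of all genes. With *Mcl1* deleted, it was 25, 17.6, and 37.5%, beside 20.6% of all genes, so that the farthest members had the highest share there. Of the 11 members within 1 Mb, 3 were higher in the *Sting1*-null livers (*Egr1*, *Sil1*, and *Igip*) and 8 were lower (*Mzb1*, *Gm50318*, *Prob1*, *Spata24*, *Maskbp3*, *Eif4ebp3*, *Apbb3*, and *Cd14*). Of these 8, 5 share reads with another of them, and the distances were divided after the values were seen.

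**Figure D3:**
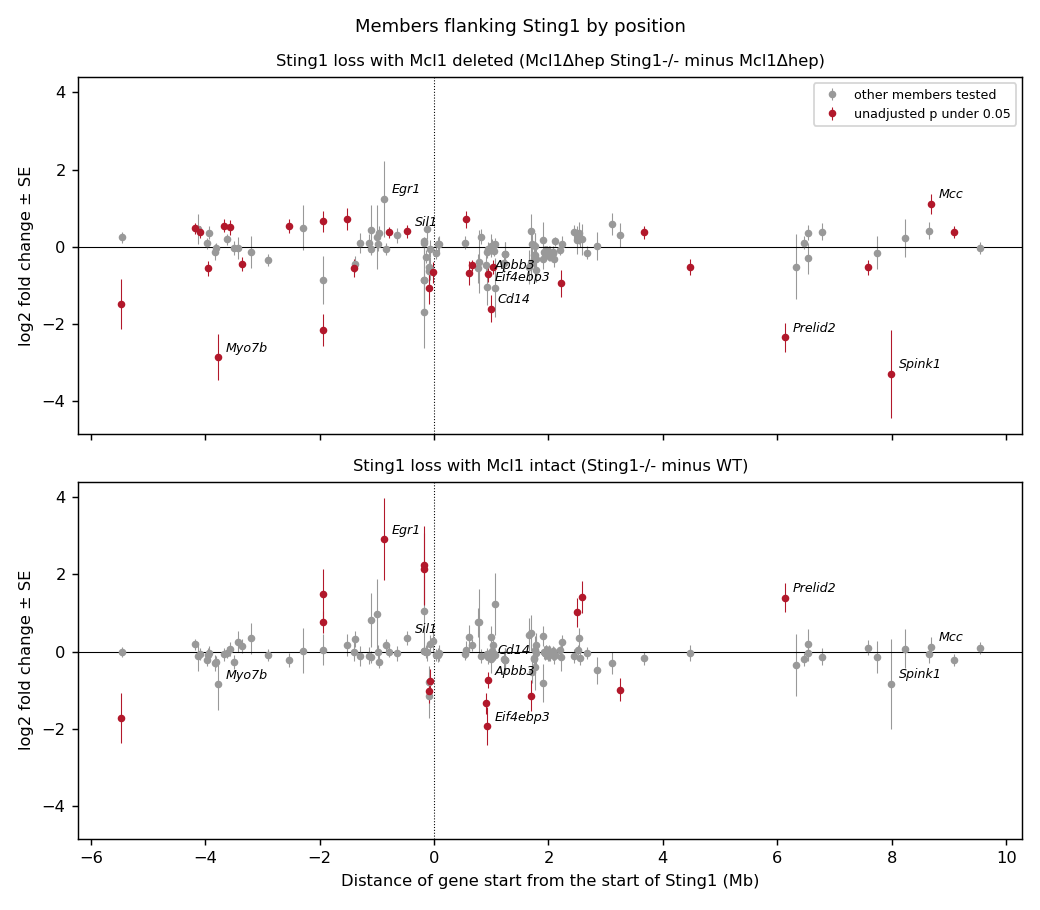
Log2 fold change ± approximate standard error of each tested member by the distance of its start from the start of *Sting1*, in livers with *Mcl1* deleted (top) and with *Mcl1* intact (bottom). Red points have an unadjusted p under 0.05 (31 members in the top plot and 16 in the bottom plot), and none passed the adjusted threshold.

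With *Mcl1* deleted, the largest log2 fold change among the members was that of *Spink1*, which encodes a trypsin inhibitor (−3.29 ± 1.14, edgeR adjusted p = 0.162). It was high in 1 liver only, with 0.310, 0.979, and 12.4 CPM in *Mcl1*Δhep and 0.935, 0.268, and 0.0821 CPM in *Mcl1*Δhep *Sting1*-/- livers, so that the groups overlapped. That liver, *Mcl1*Δhep replicate 3, also had 1155 CPM of skeletal muscle markers, and the part of other tissue in this level was not tested. *Cd14*, *Prelid2*, *Myo7b*, and *Epb41l4a* were lower in all 3 *Mcl1*Δhep *Sting1*-/- livers than in all 3 *Mcl1*Δhep livers. *Cd14*, 0.991 Mb distal to *Sting1*, had 9.99, 12.1, and 6.74 CPM in *Mcl1*Δhep and 3.24, 3.02, and 3.15 CPM in *Mcl1*Δhep *Sting1*-/- livers. In livers with *Mcl1* intact, it had 7.76, 2.67, and 4.66 CPM (WT) and 3.58, 5.89, and 3.62 CPM (*Sting1*-/-), which overlapped. Its log2 fold change was −1.60 ± 0.35 (edgeR adjusted p = 0.131, DESeq2 adjusted p = 0.00175) with *Mcl1* deleted and −0.20 ± 0.34 with *Mcl1* intact. The difference between both was −1.40 ± 0.49 (edgeR adjusted p = 0.292).

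*Cd14* is expressed by macrophages and neutrophils as well as by other liver cells, and in bulk liver fewer cells of a type and less RNA per cell cannot be told apart. The 8 Kupffer cell and macrophage markers, all of them detected, summed to 671 to 803 CPM in *Mcl1*Δhep and 688 to 809 CPM in *Mcl1*Δhep *Sting1*-/- livers, and to 408 to 640 CPM in WT and 529 to 723 CPM in *Sting1*-/- livers. The 4 neutrophil markers summed to 6.60 to 18.8 CPM in *Mcl1*Δhep and 3.11 to 4.19 CPM in *Mcl1*Δhep *Sting1*-/- livers, against 1.79 to 2.74 CPM in WT and 1.22 to 4.85 CPM in *Sting1*-/- livers. The part of these cells in the level of *Cd14* was not tested.

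*Prelid2*, which encodes a PRELI-domain protein of a family that carries lipids in mitochondria, had the largest difference between the *Sting1* effects. It lies 6.142 Mb distal to *Sting1*. Its levels were 0.818, 0.415, and 0.363 CPM in WT and 1.16, 1.83, and 1.52 CPM in *Sting1*-/- livers, so that the *Sting1*-/- livers were higher. They were 3.66, 7.10, and 5.16 CPM in *Mcl1*Δhep and 1.04, 1.36, and 0.602 CPM in *Mcl1*Δhep *Sting1*-/- livers, so that the double knockout livers were lower. The log2 fold changes were 1.40 ± 0.38 (edgeR adjusted p = 0.643) with *Mcl1* intact and −2.34 ± 0.38 (edgeR adjusted p = 0.131) with *Mcl1* deleted. Their difference was −3.74 ± 0.54 (edgeR adjusted p = 0.216).

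*Myo7b*, which encodes a myosin of brush border microvilli, had 10.4, 7.96, and 1.33 CPM in *Mcl1*Δhep livers and 1.17, 0.950, and 0.465 CPM in *Mcl1*Δhep *Sting1*-/- livers, with a log2 fold change of −2.86 ± 0.60 (edgeR adjusted p = 0.131). Livers with *Mcl1* intact had at most 0.317 CPM, from 3 to 12 counts, so that the separation of WT and *Sting1*-/- rests on a few reads. *Epb41l4a*, which encodes a FERM-domain protein, had 2.85, 1.87, and 0.696 CPM in *Mcl1*Δhep and 0.341 to 0.383 CPM in *Mcl1*Δhep *Sting1*-/- livers (−2.16 ± 0.41, edgeR adjusted p = 0.131), beside 0.378 to 0.531 CPM with *Mcl1* intact.

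Other members were lowest in the *Mcl1*Δhep livers. *Mcc*, named for its mutation in colorectal cancers, had 18.1, 7.43, and 13.0 CPM in *Mcl1*Δhep against 26.8, 32.7, and 24.6 CPM in *Mcl1*Δhep *Sting1*-/- livers, and 29.2 to 39.8 CPM with *Mcl1* intact. With *Mcl1* deleted, the log2 fold change was 1.12 ± 0.26 (edgeR adjusted p = 0.131, DESeq2 adjusted p = 0.00503). *Slc25a46*, which encodes a protein of the outer mitochondrial membrane, had 39.3, 28.5, and 29.2 CPM in *Mcl1*Δhep against 45.2, 43.6, and 47.1 CPM in *Mcl1*Δhep *Sting1*-/- livers (0.49 ± 0.14, edgeR adjusted p = 0.139). In both genes, *Mcl1*Δhep replicate 1 was the liver of its group nearest to the double knockout livers.

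Leaving out *Mcl1*Δhep replicate 1 changed these counts. With *Mcl1* deleted, edgeR then called 35 of 144 members, 17 higher and 18 lower in the *Mcl1*Δhep *Sting1*-/- livers, beside 20.2% of all genes tested. Among them were *Apbb3* (log2 fold change −0.82 ± 0.22, edgeR adjusted p = 0.0254), *Cd14* (−1.57 ± 0.40), *Prelid2* (−2.54 ± 0.38), *Mcc* (1.45 ± 0.23), and *Apc* (1.23 ± 0.20), a negative regulator of Wnt signalling. Over both *Mcl1* states, it called 11 members, beside 5.03% of all genes: *Slc25a46*, *Wdr33*, *Iws1*, *Map3k2*, *Apc*, *Igip*, *Dcp2*, and *Mcc* were higher, and *Maskbp3*, *Eif4ebp3*, and *Apbb3* were lower. For the difference between both effects, it called 20, beside 10.2%, and with *Mcl1* intact 0. Leaving out *Mcl1*Δhep replicate 3 gave 2 members with *Mcl1* deleted, beside 0.0392% of all genes, and leaving out WT replicate 1 gave 1 member for the difference, beside 0.573%. Without *Mcl1*Δhep replicate 1, the remaining replicates 2 and 3 of that group were the libraries with the largest shares of small structured RNAs. Replicate 3 also had 1155 CPM of skeletal muscle markers. The part of either in the calls without replicate 1 was not tested.

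Among 5 members of a list named for innate immune and inflammatory signalling, edgeR called 0 for *Sting1* loss over both *Mcl1* states. An unadjusted p under 0.05 was found for 3 (*Egr1*, higher, and *Cd14* and *Mzb1*, lower), beside 10.2% of all genes tested. Beside *Cd14*, the endothelial gene *Ecscr*, and the B and plasma cell gene *Mzb1*, the 5 members were *Egr1* and *Hbegf*, so that the list is broader than its name. *Egr1*, an immediate early transcription factor, varied most within groups, with 1.93, 1.93, and 4.36 CPM in WT, 54.0, 7.40, and 1.18 CPM in *Sting1*-/-, 8.61, 6.76, and 13.9 CPM in *Mcl1*Δhep, and 25.1, 39.1, and 5.36 CPM in *Mcl1*Δhep *Sting1*-/- livers. The groups overlapped in both *Mcl1* states, and its log2 fold change of 2.08 ± 0.72 had an edgeR adjusted p of 0.451. *Hbegf*, which encodes a ligand of the EGF receptor, had 0.657 to 2.12 CPM in all libraries, with a log2 fold change of 0.10 ± 0.25.

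Small noncoding RNAs of the window varied widely between livers of 1 genotype. *Snora74a*, a small nucleolar RNA, had 1.35, 3.94, and 15.1 CPM in WT and 43.3, 38.5, and 14.5 CPM in *Sting1*-/- livers. It had 2.83, 98.8, and 41.9 CPM in *Mcl1*Δhep and 34.2, 21.1, and 24.4 CPM in *Mcl1*Δhep *Sting1*-/- livers, so that *Mcl1*Δhep replicate 1, the library of its group with the smallest share of small structured RNAs, was near the lowest WT livers. The part of that share in these levels was not tested. The log2 fold change was 2.24 ± 0.997 (edgeR adjusted p = 0.909) with *Mcl1* intact and −0.85 ± 0.95 with *Mcl1* deleted. The long noncoding RNA *Snhg4* (ENSMUSG00000117869), which contains *Snora74a* and shares its reads, varied with it, from 2.03 to 101.5 CPM. A second gene named *Snhg4* (ENSMUSG00000117694), whose exons overlap those of *Matr3* and not *Snora74a*, had 42.3 to 51.9 CPM in all libraries. *Gm23639*, another small nucleolar RNA, had 0.290 to 1.85 CPM in WT and 2.23 to 3.03 CPM in *Sting1*-/- livers.

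*Gnpda1*, which encodes an enzyme of glucosamine metabolism, was higher in the livers of *Sting1*-/- mice (12.8, 22.7, and 12.9 CPM) than in WT livers (6.07, 7.09, and 5.02 CPM), without overlap. With *Mcl1* deleted, it had 4.88, 20.2, and 11.6 CPM and 12.1, 17.9, and 11.8 CPM, which overlapped. Its log2 fold changes were 1.40 ± 0.42 (edgeR adjusted p = 0.676) and 0.19 ± 0.41. *Gm49980*, a long noncoding RNA 5.467 Mb proximal to *Sting1*, had 0.976, 1.27, and 0.132 CPM in WT, 0.121 to 0.262 CPM in *Sting1*-/-, 0.538 to 0.734 CPM in *Mcl1*Δhep, and 0.0274 to 0.334 CPM in *Mcl1*Δhep *Sting1*-/- livers. The fold change over both *Mcl1* states was −1.60 ± 0.46 (edgeR adjusted p = 0.431).

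The clustered protocadherins made up 34 members, of which 33 were tested, and edgeR called 0 of them in any comparison. Of all genes, it called 0% in each *Sting1* comparison and 16.7% for *Mcl1* deletion. The protocadherins are not 34 separate measurements. The *Pcdhg* genes share their last exons, and the counts of 21 of them, all but *Pcdhgc3*, lay within a ratio of 1.07 to 1.12 of each other in every library. The log2 fold changes of these 21 genes were −0.13 to −0.07 for *Sting1* loss over both *Mcl1* states and 0.19 to 0.22 for *Mcl1* deletion. *Pcdhgc3* had 15.4 to 19.1 CPM in WT, 16.2 to 17.6 CPM in *Sting1*-/-, and 18.4 to 20.1 CPM in *Mcl1*Δhep *Sting1*-/- livers, and at least 19.4 CPM in each *Mcl1*Δhep liver, with log2 fold changes of −0.06 ± 0.09 for *Sting1* loss and 0.27 ± 0.09 (edgeR adjusted p = 0.0691) for *Mcl1* deletion. Of the *Pcdhb* genes, whose exons are their own, *Pcdhb11* had 0.231 to 0.528 CPM in WT and 0.116 to 0.169 CPM in *Sting1*-/- livers (−1.14 ± 0.41, edgeR adjusted p = 0.813). *Gm38666* and *Gm37388*, which overlap this cluster, had identical counts in all 12 libraries (16 to 60 counts).

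**Figure D4:**
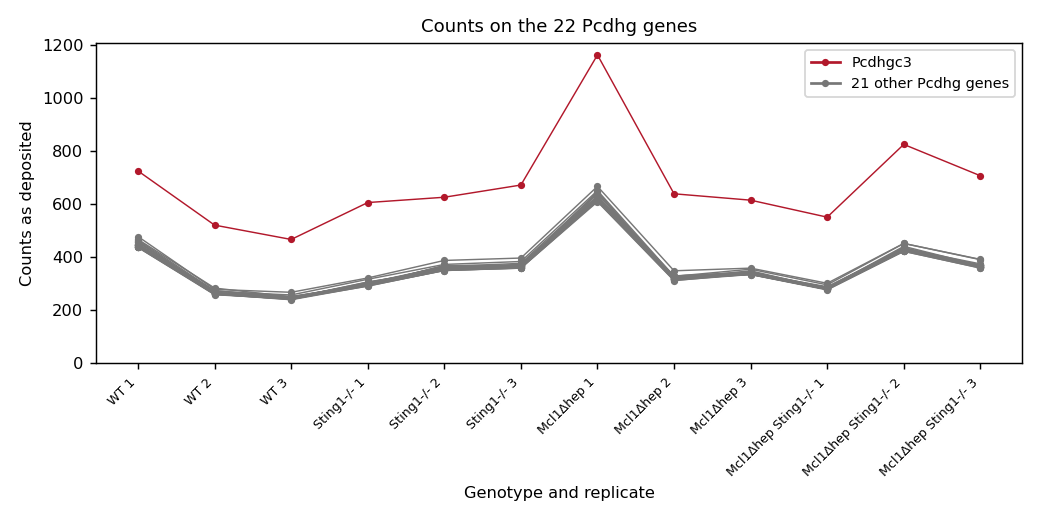
Deposited counts of the 22 *Pcdhg* genes in each library, with 1 line per gene on an axis that starts at 0. The 21 grey lines lie on top of each other, within a ratio of 1.12 in every library, and *Pcdhgc3*, in red, runs above them.

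In the other role lists, edgeR called 0 members for *Sting1* loss over both *Mcl1* states. Of all genes tested, 0% were called and 10.2% had an unadjusted p under 0.05. Among 8 members of the list of hepatocyte metabolism and secreted proteins, the log2 fold changes lay between −2.06 (*Spink1*, SE 1.01, edgeR adjusted p = 0.499) and 0.80 (*Gnpda1*, SE 0.29, edgeR adjusted p = 0.451), and 2 had an unadjusted p under 0.05 (*Myo7b*, at −1.86 ± 0.49, and *Gnpda1*). *Hspa9*, the mitochondrial Hsp70 and the member with the most counts, had 570 to 657 CPM in WT, 590 to 618 CPM in *Sting1*-/-, 452 to 585 CPM in *Mcl1*Δhep, and 621 to 693 CPM in *Mcl1*Δhep *Sting1*-/- livers. Over both *Mcl1* states, its fold change on the log2 scale was 0.19 ± 0.10 (edgeR adjusted p = 0.516). *Pfdn1*, which encodes a subunit of the chaperone prefoldin, had −0.16 ± 0.11. Among 14 members that handle RNA or act in translation, the fold changes lay between −0.33 and 0.18 with 0 called and 1 at an unadjusted p under 0.05 (*Polr2d*). *Matr3*, which encodes a nuclear matrix protein that binds RNA, had 0.07 ± 0.08, *Etf1*, the translation termination factor, had 0.06 ± 0.11, *Paip2*, an inhibitor of the poly(A)-binding protein, had −0.13 ± 0.12, and *Sra1* had −0.09 ± 0.11. Among 7 members with roles in cell division, 0 were called for *Sting1* loss and 0 had an unadjusted p under 0.05, with *Kif20a* at 0.63 ± 0.47, *Cdc25c* at 0.61 ± 0.58, *Ik* at 0.02 ± 0.12, the formin gene *Diaph1* at 0.02 ± 0.09, the deacetylase gene *Hdac3* at −0.03 ± 0.08, and *Apc* at 0.44 ± 0.21 (edgeR adjusted p = 0.496).

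*Mcl1* deletion changed members in both directions. Over both *Sting1* states, edgeR called 23 of the 143 members (16.1%), 8 higher and 15 lower in livers without *Mcl1*, beside 16.7% of all genes (9.9% higher and 6.83% lower). The 8 include *Spink1*, which reached the count minimum in livers without *Mcl1* only. DESeq2 called 28, beside 21.3%. The share of called members was thus near that of all genes. With the share of small structured RNAs in the model, 13 members were called, beside 10.6% of all genes, and without *Mcl1*Δhep replicate 1, 45 were, beside 27.8%. The median log2 fold change of the members was 0.05, beside −0.02 for all genes. *Mcl1* itself, on chromosome 3, had 98.6 ± 7.36 CPM (SD, n = 3) in WT and 81.8 ± 7.20 CPM in *Sting1*-/- livers, against 29.0 ± 4.58 CPM in *Mcl1*Δhep and 22.3 ± 3.96 CPM in *Mcl1*Δhep *Sting1*-/- livers.

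Of the members that rose, 2 act in mitosis. *Kif20a*, which encodes a mitotic kinesin, had 0.925 to 1.64 CPM in WT and 2.15 ± 0.824 CPM (SD, n = 3) in *Sting1*-/- livers, against 25.6, 12.7, and 6.51 CPM in *Mcl1*Δhep and 42.0, 14.3, and 5.12 CPM in *Mcl1*Δhep *Sting1*-/- livers. All 6 livers without *Mcl1* were above the other 6, with a log2 fold change of 3.41 ± 0.50 (edgeR adjusted p = 0.00123). *Cdc25c*, the phosphatase that activates the mitotic kinase CDK1, rose by 3.26 ± 0.67 (edgeR adjusted p = 0.00759) from at most 0.320 CPM with *Mcl1* intact. The other 5 members of the cell division list did not pass the test, which 16.7% of all genes passed. *Myo7b* rose by 3.68 ± 0.47 (edgeR adjusted p = 0.000624), most in the *Mcl1*Δhep livers. *Prelid2* had a log2 fold change of 1.31 ± 0.27 (edgeR adjusted p = 0.00756) as the mean of both *Sting1* states. It was higher in *Mcl1*Δhep than in WT livers, but its mean was lower in *Mcl1*Δhep *Sting1*-/- than in *Sting1*-/- livers.

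*Spink1* had at most 0.935 CPM in the livers other than *Mcl1*Δhep, and its log2 fold change of 3.61 ± 0.90 (edgeR adjusted p = 0.0184) was 2.25 without *Mcl1*Δhep replicate 3. Without *Mcl1*Δhep *Sting1*-/- replicate 1, it was no longer called. It reached the count minimum in livers without *Mcl1* only, as did *Pcdhb9* and *Pcdhb18*, and so had to be high there to be a member. *Polr2d*, a subunit gene of RNA polymerase II, *Ecscr*, and *Fchsd1* were also called higher, by 0.46 to 0.82.

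The members that fell include liver genes. Of 8 members of the list of hepatocyte metabolism and secreted proteins, 5 fell and 2 rose (*Myo7b* and *Spink1*). *Spink1* had to be high in livers without *Mcl1* to be a member, so its rise is not support. Of all genes, 6.83% fell and 9.9% rose, and the list was chosen with earlier results of these data known. *Proc* fell by 0.43 on the log2 scale (SE 0.10, edgeR adjusted p = 0.0149), from 466 to 586 CPM in WT and 477 to 543 CPM in *Sting1*-/- livers to 321 to 375 CPM in *Mcl1*Δhep and 379 to 447 CPM in *Mcl1*Δhep *Sting1*-/- livers. *Stard4*, which encodes a cholesterol transfer protein, fell by 0.68 ± 0.13 (edgeR adjusted p = 0.00622), from 127 to 174 CPM with *Mcl1* intact to 65.0 to 139 CPM without it. *Slc23a1*, which encodes a vitamin C transporter, fell by 0.72 ± 0.17, the growth factor gene *Fgf1* by 0.88 ± 0.20, and *Nr3c1* by 0.48 ± 0.12. The hepatocyte markers summed to 90520 to 122300 CPM in livers without *Mcl1* and 82040 to 144600 CPM in livers with it.

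The largest fall was that of *Spry4*, an inhibitor of receptor tyrosine kinase signalling. It had 15.0, 9.64, and 10.9 CPM in WT and 12.7, 8.84, and 3.93 CPM in *Sting1*-/- livers, against 4.17 to 5.19 CPM in *Mcl1*Δhep and 3.89 to 6.51 CPM in *Mcl1*Δhep *Sting1*-/- livers. It fell by 1.08 on the log2 scale (SE 0.25, edgeR adjusted p = 0.0144). *Arhgap26* fell by 0.89 ± 0.22, from 20.4 to 39.5 CPM in WT livers. Its *Sting1*-/- livers had 16.3, 21.2, and 10.8 CPM, with a log2 fold change of −0.99 ± 0.31 (edgeR adjusted p = 0.727) for *Sting1* loss with *Mcl1* intact. Of the 23 members called, 14 were called in all 12 fits that each left out 1 library, and *Sap130*, *Polr2d*, and *Pcdh1* in 3 or fewer.

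**Figure D5:**
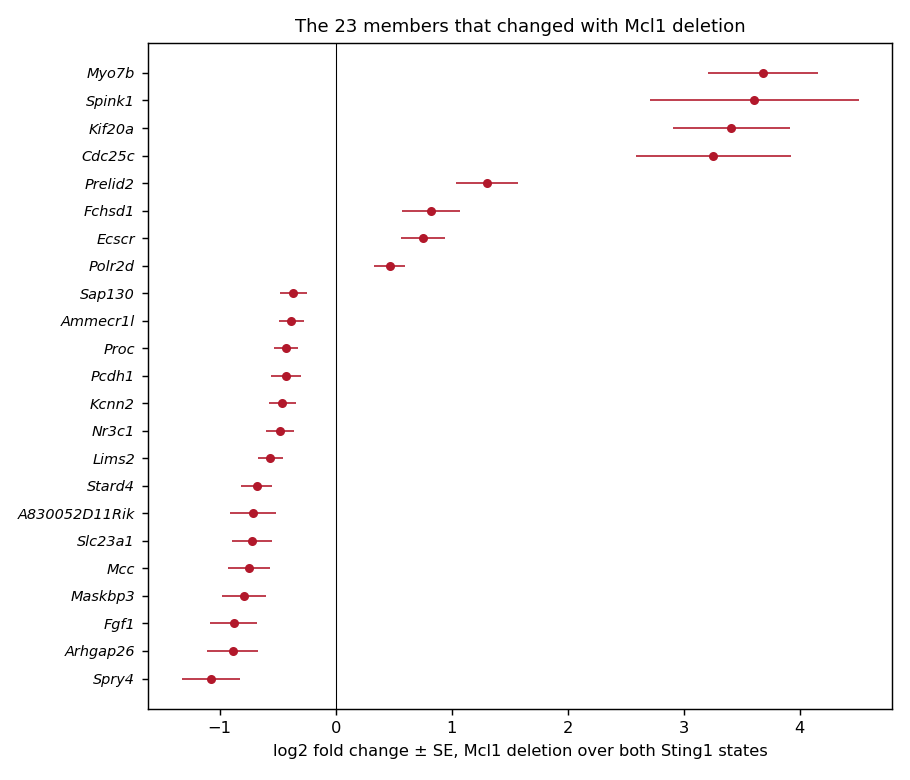
Log2 fold change ± approximate standard error of the 23 members called for *Mcl1* deletion over both *Sting1* states. The 8 members above 0 range from 0.46 (*Polr2d*) to 3.68 (*Myo7b*), and the 15 below 0 reach −1.08 (*Spry4*).

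In TPM, which divide counts by exon length, *Proc* was the highest of the members (518 TPM as the mean of 12 libraries), followed by *Snora74a* (490 TPM) and *Hspa9* (413 TPM). *Sh3rf2* was the lowest (0.0975 TPM). The count minimum was reached in all 12 libraries by 122 members and in 3 to 11 by 23. Just inside it were *Pcdhb12*, *Pcdhb18*, and *Ppp2r2b* with a third-highest count of 10, and just outside were *Pkd2l2*, *Pcdhb4*, and *Pcdhb7* with 9.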

How the data were processed

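Total RNA was sequenced from 12 mouse livers, with 3 mice for each genotype taken from the labels. The counts that the authors deposited are whole and not normalized, 1 value per Ensembl gene and liver. The submitters' processing notes name STAR, featureCounts, and GRCm39. Versions, the annotation, and the use of strand are not given in the sources used here, and reads of overlapping genes were evidently counted for each gene (80 members have exons that overlap another counted gene). The labels and the study's methods name different RNeasy kits.

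Positions came from GENCODE vM39 (GRCm39), which holds 39533 of the 40551 identifiers. CPM, fold changes, and p-values were computed from the counts with edgeR 4.0.16 in R 4.3.3 (TMM, filterByExpr, glmQLFit with a prior count of 2, glmQLFTest) on all 12 libraries, which share 1 estimate of the spread (common dispersion 0.0699), with Benjamini-Hochberg adjustment over 15070 genes and a threshold of 0.05. The effect over both *Mcl1* states is the mean of the effects within them. DESeq2 1.42.0 was the alternative test. Exact permutation within *Mcl1* states was run but gives no p here, since separation in both states, by which members were described, fixes it. Depth was 28826367 to 45266387 counts per library, and p-values measure the spread between these mice. Livers of 1 genotype were compared for duplicates, and chi-square per degree of freedom was 40.1 to 290. Figures were drawn with Python 3.11.15 and matplotlib 3.10.9.

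On simulated data for *Sting1* loss over both *Mcl1* states with a log2 change of 2, edgeR found 194 of 194 changed genes (14814 genes in all, 13 false calls), and DESeq2 194 with 26. Every simulated gene had the same dispersion, and no simulated liver stood apart. The simulation therefore does not show how often smaller changes would be found in these livers. The members and lists were chosen with earlier results of these data known. The genes named are members without overlap between the 6 null and 6 intact libraries, the 5 nearest to *Sting1* on each side, the 3 highest and 3 lowest called for *Mcl1* deletion, and the 4 most abundant of each role list. Others were named after their values were seen. Whether replicate numbers pair the livers could not be settled. Deviations of same-numbered livers correlated at −0.54 to 0.25, and those of other pairs at −0.24 to 0.44. With 3 livers per genotype, such values cannot exclude pairing, and the main model used none. Alternatives were another normalization, filters, DESeq2, covariates, a replicate block, an additive model, a narrower window, members without overlap, and leaving out each library.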

Additional observations from a re-analysis of the deposited data

Results flagged for a closer look

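DESeq2, but not edgeR, the main test, called a difference in the effect of *Sting1* loss on *Prelid2* between livers with and without *Mcl1*. The difference of the log2 fold changes was −3.89 in DESeq2 (adjusted p = 8.2e-08), the 1 member called for this difference, and −3.74 in edgeR (adjusted p = 0.216). DESeq2 thus called 0.699% of the members for this difference, beside 1.13% of all genes. All 3 *Sting1*-/- livers were above all 3 WT livers, and all 3 *Mcl1*Δhep *Sting1*-/- livers were below all 3 *Mcl1*Δhep livers. Separation in opposite directions held for 1.34% of all genes. Groups of 3 livers were not searched for single livers far from the others.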

How the results depend on the processing

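In edgeR, 0 members were called for *Sting1* loss over both *Mcl1* states under every alternative other than leaving out libraries (0 to 0.00815% of all genes). DESeq2 called 4 over both states (0.445% of all genes), 7 with *Mcl1* deleted (4.51%), 2 with *Mcl1* intact (0.325%), and 1 for the difference (1.13%). Leaving out 1 library gave 0 to 11 over both states (0 to 5.03% of all genes), 0 to 35 with *Mcl1* deleted (0 to 20.2%), 0 to 0 with *Mcl1* intact (0 to 0.143%), 0 to 20 for the difference (0 to 10.2%), and 17 to 45 for *Mcl1* deletion (11.1 to 27.8%), each count highest without *Mcl1*Δhep replicate 1 except with *Mcl1* intact. Calls for *Mcl1* deletion were 13 with small structured RNAs as a covariate (10.6% of all genes) and 12 of 63 among members with no exon overlap (16.7%, fewer members tested). Under the others they were 17 to 28 (8.76 to 21.3%). The replicate block called 0 for *Sting1* loss (0% of all genes) and 23 for *Mcl1* deletion (15%), and *Polr2d* lost its call there, the 1 change among named members. The median for *Sting1* loss was 0.03 over members with no overlap and 0.01 without WT replicate 1, against −0.07. The count of members separated the same way in both *Mcl1* states, an alternative chosen after seeing the data, was 5 (0.77% of all genes), 6 with DESeq2's size factors (0.783%), and 6 to 10 without 1 library (0.967 to 2.15%). Leaving out a library makes overlap rarer, so the counts without 1 library do not check the 5. With 3 livers a group, members of few counts, such as *Myo7b* with *Mcl1* intact, *Mzb1*, and *Pcdhb11*, cannot be read precisely.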
